A study of Mus musculus with 7 samples.

Results

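The Trim12, Trim30 and Trim34 genes form a cluster of tripartite motif genes on mouse chromosome 7, the chromosome that also carries Rras2. Its members here are Trim12a, Trim12c, Trim30a, Trim30b, Trim30d and Trim34a, each read by the probe whose only gene symbol in the array's annotation is that of the member. All 6 were found among the 21515 genes with a symbol of their own, each with 1 such probe, and all 6 were among the 16136 genes bright enough to be tested. The cluster was chosen by the log2 differences of its genes between the genotypes on these same arrays, so those differences are given as a description and without a test.

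The study compared germinal centre B cells of mice lacking R-Ras2, a RAS-related GTPase, with those of wild-type (WT) mice. Splenic cells positive for B220, CD95 and GL7 were sorted 7 days after sheep red blood cells had been injected to raise germinal centres, and total RNA of each sample was hybridised to 1 whole-transcript array. There were 3 RRas2-deficient and 4 WT arrays, all from immunized mice, which the labels call biological replicates. The labels give no strain, age, sex or allele, and 1 label field shortens the genotype to Rras-deficient. They also give no number of mice per array, so the spread between arrays may be partly technical. In such bulk samples fewer cells of a type and less RNA per cell cannot be told apart.

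Tripartite motif (TRIM) proteins carry a RING domain, which lets them act as ubiquitin ligases, followed by a B-box and a coiled coil. Many end in a B30.2 domain that recognises a target, as in primate TRIM5, which binds the capsid of incoming retroviruses. The rodent cluster holds the relatives of primate TRIM5, TRIM34 and TRIM6 and has been expanded by gene duplication, and several of its genes are induced by interferons. In mouse macrophages TRIM30a restrains Toll-like receptor signalling by promoting the loss of the TAB2 and TAB3 adapters of NF-kB activation.

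Trim12a, Trim12c, Trim30a, Trim30d and Trim34a carry the same short motif near their annotated start, and the stretch around it is shown because it makes the kinship of Trim12a with Trim12c, and of Trim30a with Trim30d, visible. Each stretch has 130 bases of the RefSeq promoter window (build GRCm38.p6), read 5′ to 3′ on the strand of the gene, and the capitals mark the motif TTTCNNTTTC.
Trim12a, chr7:104315466-104315595, minus strand: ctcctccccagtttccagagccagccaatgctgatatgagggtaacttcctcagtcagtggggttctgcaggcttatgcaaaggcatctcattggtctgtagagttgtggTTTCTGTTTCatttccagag
Trim12c, chr7:104353359-104353488, minus strand: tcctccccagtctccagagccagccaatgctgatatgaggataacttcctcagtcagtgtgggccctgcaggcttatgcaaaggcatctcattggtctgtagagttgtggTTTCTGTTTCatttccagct
Trim30a, chr7:104465210-104465339, minus strand: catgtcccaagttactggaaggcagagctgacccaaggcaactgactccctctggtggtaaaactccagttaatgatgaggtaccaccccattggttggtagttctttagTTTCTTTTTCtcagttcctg
Trim30d, chr7:104507871-104508000, minus strand: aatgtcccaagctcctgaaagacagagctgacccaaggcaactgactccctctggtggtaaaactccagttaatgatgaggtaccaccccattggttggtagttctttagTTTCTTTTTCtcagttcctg
Trim34a, chr7:104244357-104244486, plus strand: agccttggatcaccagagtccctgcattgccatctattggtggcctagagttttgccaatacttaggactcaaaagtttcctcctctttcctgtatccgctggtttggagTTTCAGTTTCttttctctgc

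The motif TTTCNNTTTC, or GAAANNGAAA on the other strand, is the core of the interferon-stimulated response element, to which interferon regulatory factors bind. Both strands of the 300-base windows, 250 bases before and 50 after the start, were searched. A match was found in 6 of the 7 windows of the members (Trim30a has 2), once in each, against 1131 of 32851 windows of all genes (3.44%). Several of these windows are near copies of each other, among them the 2 of Trim30a (89.5% identity), so the matches are not separate observations. The match began 10 bases after the annotated start in Trim12a and in Trim34a. It began 29, 36 and 41 bases before the start in Trim12c, in the first window of Trim30a and in Trim30d. These letters were not in the window of Trim30b. A match is a description of the sequence and does not show that a factor binds there. The windows of Trim12a and Trim12c were identical at 247 of 261 aligned positions (94.6%), and the first window of Trim30a and that of Trim30d at 276 of 295 (93.6%). The second window of Trim30a matched that of Trim30d at 225 of 261 aligned positions (86.2%). Between the windows of the Trim12 genes and those of Trim30a or Trim30d identity was 53.5% to 56.5%. Only 50 of the 300 bases of a window lie after the start, so these identities do not give those of the RNAs. If the RNAs are as alike, they could be read in part by each other's probes. The RNA and probe sequences were not used here, and how the signal divides between such copies was not tested.

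The arrays and their cell type bear on all values that follow. The B cell genes Cd79a, Cd79b, Ptprc, Ms4a1 and Pax5 and the germinal centre genes Bcl6, Fas, S1pr2, Gcsam, Mki67 and Mybl1 were bright in both genotypes, with list means of 10.40 to 10.93 and 8.91 to 9.81 on the deficient arrays and of 10.46 to 11.08 and 8.93 to 10.09 on the WT arrays. Plasma cell markers had list means of 6.75 to 7.19 on deficient and 7.02 to 7.40 on WT arrays. The list means of T cell markers were 3.85 to 4.12 on deficient and 3.77 to 4.65 on WT arrays. Those of monocyte, macrophage and dendritic cell markers were 4.62 to 5.03 on deficient and 4.52 to 4.82 on WT arrays. All values are log2 intensities, and 3.48 was the limit below which a gene counted as dim. The 7 arrays fall into 2 sets by the interquartile range of their values, 3 narrower arrays (RRas2-deficient replicate 2, WT replicates 1 and 2) at 2.37 to 2.49 and 4 wider arrays (RRas2-deficient replicates 1 and 3, WT replicates 3 and 4) at 2.69 to 2.91. Both genotypes occur in each set, and for the members and Rras2 the difference within each set is given beside that of all arrays. Rras2 itself averaged 6.91 ± 0.22 in deficient (SD, n = 3) and 7.90 ± 0.74 in WT cells (SD, n = 4), a difference of -0.99 ± 0.39 (SE) that did not pass limma's test over all genes (adjusted p = 1.00) or a two-sided exact permutation test (p = 0.114, with 0.0286 the smallest it can give). The genotypes did not overlap, by less than 0.01, and the difference was -0.59 in the narrower and -1.50 in the wider set. With the set as a block it was -1.13 ± 0.20 (SE), and limma's p was 0.00077 before and 0.296 after adjustment over all genes. Which stretch of Rras2 the mice lack is not in the labels, and a probe that reads elsewhere in the gene is no check of the genotype.

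Of the 6 members 4 were lower in RRas2-deficient than in WT cells, 1 was higher, and 1 did not differ beyond its spread. Among all genes tested 48.3% had a difference below 0. Trim12a, Trim34a, Trim30b and Trim30d read lower on all 3 deficient arrays than on any of the 4 WT arrays, Trim12c read higher on all 3 than on any WT array, and Trim30a overlapped. Over all genes tested the genotypes did not overlap in 59 genes that were lower (0.366%) and 116 that were higher (0.719%). A difference of at least 1 on the log2 scale was found for 4 of the 6 members and for 28 of the 16136 genes tested (0.174%). Limma's test over all genes called 2 genes at an adjusted p under 0.05 (0.0124%) and both were lower. That contrast chose the members, so nothing is read from these shares.

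Trim12a (gene ID 76681), one of the mouse counterparts of primate TRIM5, was the brightest member in WT cells. It read 4.93, 5.28 and 5.39 in RRas2-deficient replicates 1 to 3, against 7.46, 7.68, 7.85 and 8.16 in WT replicates 1 to 4. The lowest WT array lay 2.07 above the highest deficient array. The means were 5.20 ± 0.24 in deficient cells (SD, n = 3) and 7.79 ± 0.30 in WT cells (SD, n = 4), a log2 difference of -2.59 ± 0.19 (SE), or 6.01-fold lower. Of all genes tested only 1 had a lower difference, the predicted gene Gm1966. With each array left out in turn the difference ran from -2.70 to -2.45. Its level differed little between the array sets, by 0.22 ± 0.17 (SE, wider minus narrower, genotype held), and the difference between genotypes was -2.29 within the narrower and -2.84 within the wider arrays.

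Trim12c (gene ID 319236), its near copy, which promotes interferon and NF-kB signalling together with TRAF6 in mouse cells, ran the other way. Its values were 5.44, 4.09 and 5.19 in RRas2-deficient replicates 1 to 3, against 3.20, 2.99, 3.45 and 3.17 in WT replicates 1 to 4. All 4 WT arrays lay under the limit for dim genes and all 3 deficient arrays above it, so the size of the difference is uncertain. Deficient cells averaged 4.91 ± 0.72 (SD, n = 3) and WT cells 3.20 ± 0.19 (SD, n = 4), a difference of 1.71 ± 0.32 (SE) between values on both sides of that limit. Unlike Trim12a, it varied widely among the deficient arrays, with the narrower array RRas2-deficient replicate 2 lowest. Deficient minus WT came to 0.99 in the narrower and 2.01 in the wider set, and to 2.11 without RRas2-deficient replicate 2.

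A further probe, whose annotation names both Trim12c and Trim5 and which was therefore assigned to neither, also read higher in deficient cells. It read 6.29, 5.16 and 6.63 in RRas2-deficient replicates 1 to 3 and 3.93, 4.09, 3.95 and 4.40 in WT replicates 1 to 4. Its means were 6.03 ± 0.77 (SD, n = 3) in deficient cells and 4.09 ± 0.22 (SD, n = 4) in WT cells, which put them 1.94 apart on the log2 scale. RRas2-deficient replicate 2 was again the lowest deficient array, and the genotypes did not overlap. Here the WT arrays all lay above the limit for dim genes.

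**Figure D1:**
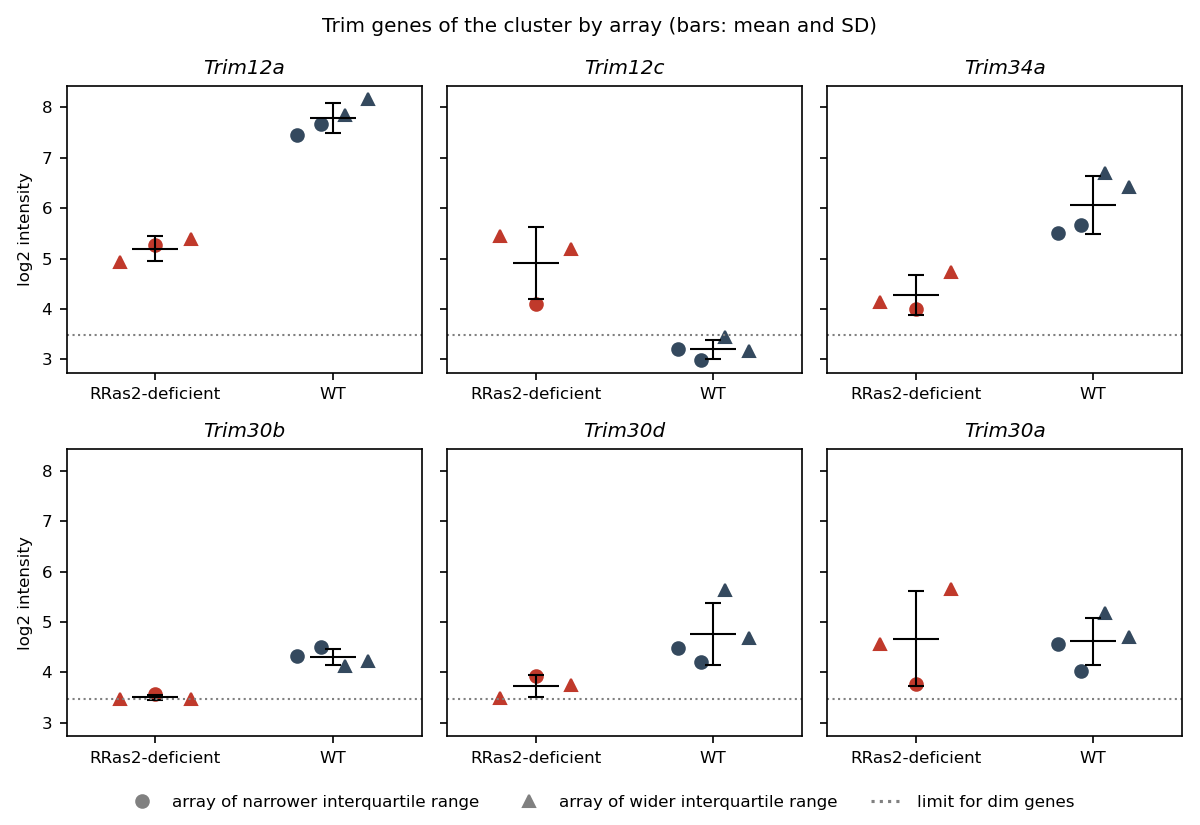
Log2 intensity of the 6 members on each array, RRas2-deficient (red, n = 3) left of WT (dark, n = 4), with circles for the 3 narrower and triangles for the 4 wider arrays, bars for mean ± SD and a dotted line at the limit for dim genes (3.48). Trim12a separates by 2.07 between the nearest arrays of the genotypes, Trim12c reverses the order, and Trim30a overlaps.

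Trim34a (gene ID 94094), an interferon-inducible member related to primate TRIM34, was lower in deficient cells. Its values were 4.13, 3.99 and 4.73 in RRas2-deficient replicates 1 to 3, against 5.51, 5.66, 6.70 and 6.42 in WT replicates 1 to 4. The nearest arrays of the genotypes were 0.78 apart. Deficient cells averaged 4.29 ± 0.39 (SD, n = 3) and WT cells 6.07 ± 0.57 (SD, n = 4), a difference of -1.79 ± 0.34 (SE), or 3.45-fold lower. Part of the spread within a genotype went with the array set, since Trim34a was 0.76 ± 0.18 (SE) brighter on the wider arrays. With the set held as a block the difference was -1.91 ± 0.18 (SE), and it was -1.60 within the narrower and -2.13 within the wider arrays.

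Of the 3 Trim30 genes among the members 2 read lower in deficient cells and 1 overlapped. Trim30b (gene ID 244183) had the smallest spread, at 3.48, 3.56 and 3.48 in RRas2-deficient replicates 1 to 3 and 4.33, 4.51, 4.13 and 4.23 in WT replicates 1 to 4. The deficient arrays lay at the limit for dim genes and close together, and the WT arrays above them by at least 0.57. With means of 3.51 ± 0.05 in deficient (SD, n = 3) and 4.30 ± 0.16 in WT cells (SD, n = 4), the difference was -0.79 ± 0.11 (SE), a size that is uncertain because the deficient arrays lie at that limit. It was -0.86 in the narrower and -0.70 in the wider set, with the same limit on both.

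Trim30d (gene ID 209387), earlier named Trim79 and known in mouse for restricting tick-borne encephalitis virus, showed a difference that leaned on its highest WT array. It read 3.49, 3.93 and 3.76 in RRas2-deficient replicates 1 to 3, against 4.49, 4.21, 5.63 and 4.69 in WT replicates 1 to 4. WT replicate 3 stood highest, and the other WT arrays still lay above every deficient array, by 0.28 at the nearest. The means were 3.73 ± 0.22 in deficient (SD, n = 3) and 4.75 ± 0.61 in WT cells (SD, n = 4), a difference of -1.03 ± 0.33 (SE). It was -0.73 without WT replicate 3, -0.42 in the narrower set and -1.53 in the wider set.

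Trim30a (gene ID 20128), the founding Trim30 gene, showed no difference beyond its spread. Its values were 4.57, 3.78 and 5.66 in RRas2-deficient replicates 1 to 3 and 4.56, 4.02, 5.17 and 4.70 in WT replicates 1 to 4. The lowest and the highest of the 7 arrays were both deficient ones. Deficient cells averaged 4.67 ± 0.94 (SD, n = 3) and WT cells 4.61 ± 0.47 (SD, n = 4), a difference of 0.05 ± 0.46 (SE). The sign changed with the arrays used, from -0.51 within the narrower and 0.17 within the wider arrays to -0.44 without RRas2-deficient replicate 3 and 0.50 without RRas2-deficient replicate 2. Trim30a was 0.92 ± 0.30 (SE) brighter on the wider arrays at equal genotype, the largest such shift of the 6 members. The stretch of its first promoter window printed above closely resembles that of Trim30d. Their differences between the genotypes were 0.05 ± 0.46 and -1.03 ± 0.33 (SE). Within the narrower arrays these were -0.51 for Trim30a and -0.42 for Trim30d, and within the wider arrays 0.17 and -1.53. Whether the 2 genes differ in their shifts was not tested.

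**Figure D2:**
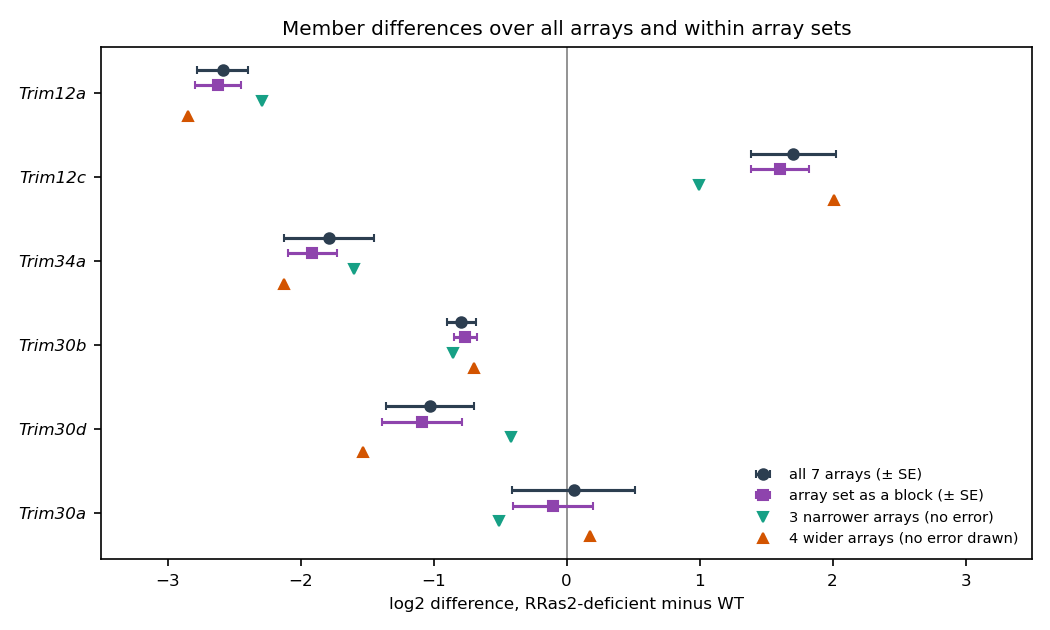
Log2 difference, RRas2-deficient minus WT, of each member over all 7 arrays (circles, ± SE), with the array set as a block (squares, ± SE), and in the narrower (down triangles, 3 arrays) and wider sets (up triangles, 4 arrays). Trim12a, Trim34a, Trim30b and Trim30d stay below 0 and Trim12c above 0 in all 4, while Trim30a lies on both sides of 0.

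Trim30a lay highest on the array where interferon response genes were highest. The mean log2 intensity of the 39 measured genes of a type I interferon response list was 5.67, 5.40 and 6.25 in RRas2-deficient replicates 1 to 3, against 5.40, 5.49, 5.67 and 5.59 in WT replicates 1 to 4. RRas2-deficient replicate 3 thus exceeded the other 6 arrays in the list and in Trim30a, and RRas2-deficient replicate 2 was at the low end of both. The monocyte, macrophage and dendritic cell markers also averaged highest on RRas2-deficient replicate 3, at 5.03 against 4.52 to 4.90 on the other 6 arrays. The part of these in the level of Trim30a was not tested. Trim12a read 5.39 and Trim34a 4.73 on RRas2-deficient replicate 3, the highest of the deficient arrays in both. Trim12c (5.19), Trim30b (3.48) and Trim30d (3.76) did not have their highest deficient value on that array.

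**Figure D3:**
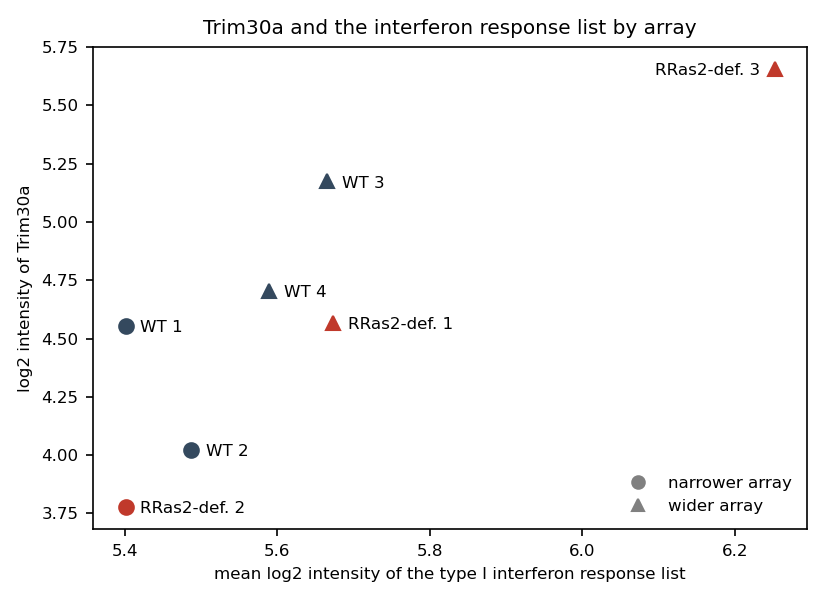
Log2 intensity of Trim30a (y) against the mean log2 intensity of the 39 measured interferon response genes (x) for RRas2-deficient (red) and WT arrays (dark), with circles for narrower and triangles for wider arrays. RRas2-deficient replicate 3 is the array at the upper right, with 5.66 for Trim30a and 6.25 for the list.

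The interferon response genes gave no call singly. Of the 35 tested, 33 had higher and 2 lower means in deficient cells, with 0 past limma's threshold and 1 at an unadjusted p under 0.05 (132 of the 16136 genes tested, 0.818%), and the median log2 difference was 0.24 beside 0.00 over all genes tested. It was 0.01 without RRas2-deficient replicate 3. The members of lowest p were Oas2 (0.45 ± 0.17, log2 difference ± SE) and Oas3 (0.44 ± 0.21), synthetases of the messenger that activates RNase L, the RNA sensor gene Dhx58 (0.41 ± 0.20) and the RNA-editing enzyme gene Adar (0.24 ± 0.13). The adjusted p of each was 1.00. Without overlap of the genotypes there was 1 of 35 (2.86%), Oas2, where all genes tested gave 1.08%. With the array set as a block limma again called none of these 35. An unadjusted p under 0.05 was found for 3 of them, where 1634 of the 16136 genes tested had one (10.1%). The 3 were Oas2 (0.49 ± 0.14) and Dhx58 (0.32 ± 0.08), which were higher, and Phf11b (-0.67 ± 0.17), which was lower in deficient cells. Of the 3 lists described next, that fit gave such a p to 1 of 18, 3 of 26 and 0 of 14 genes and called none.

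The receptors and relay that carry an interferon signal gave no call either. Stat2, Irf9, Irf7 and Usp18 of this list are also in the interferon response list. Of 18 tested genes 11 had higher and 7 lower means, 0 were called by limma and 0 had an unadjusted p under 0.05, with a median of 0.04. The 4 of lowest p were the feedback inhibitor Socs1 (0.12 ± 0.08), the interferon regulatory factor gene Irf7 (0.26 ± 0.18), Stat2 (0.16 ± 0.14) and the interferon-induced protease gene Usp18 (0.53 ± 0.50). In the Toll-like receptor and NF-kB relay, on which TRIM30a and TRIM12c are known to act, 10 of 26 tested genes had higher and 16 lower means, with a median of -0.05, and limma called 0 and gave 0 an unadjusted p under 0.05. Tlr7 was the 1 of 26 (3.85%) whose genotypes did not overlap. The NF-kB subunit gene Nfkb2 (0.18 ± 0.09) and the receptor genes Tlr7 (-0.20 ± 0.11), Tlr1 (-0.26 ± 0.16) and Tlr3 (0.23 ± 0.14) were those of lowest p, each with an adjusted p of 1.00. Other restriction factors, with Bst2 shared with the interferon response list, had higher means in 10 and lower means in 4 of 14 cases. Their median was 0.06, with 0 calls by limma and 0 at an unadjusted p under 0.05. Among them the lowest p belonged to Slfn5 (0.29 ± 0.19), the retrovirus restriction gene Fv1 (-0.18 ± 0.14), Slfn2 (0.20 ± 0.17) and Mov10 (0.22 ± 0.20).

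Along the chromosome the members run in the RefSeq order Trim34a, Trim12a, Trim12c, Trim30b, Trim30a and Trim30d, 16 genes from the first to the last, and they lie 303 to 318 genes from Rras2 on the same side of it. The lower members are thus broken up by Trim12c, between Trim12a and Trim30b, and by Trim30a, between Trim30b and Trim30d. Trim5 and Trim34b, which lie among them, had no probe with a symbol of their own and were not analysed here. Trim30c, next to Trim30b, was dim on all arrays, at 3.27, 3.27 and 3.34 on the deficient and 2.96, 3.27, 3.27 and 3.27 on the WT arrays. The pseudogene Trim30e-ps1 read 2.49, 2.45 and 2.53 on the deficient and 2.86, 2.66, 2.45 and 2.59 on the WT arrays. Trim6, the gene before Trim34a among the measured ones, read 3.29, 3.18 and 3.29 on the deficient and 3.35, 3.60, 3.32 and 3.32 on the WT arrays, a gap of 0.02 between the genotypes at or near the limit for dim genes.

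Among the measured neighbours of the members, which include Trim6, Trim30c and Trim30e-ps1, most were too dim to be tested. Besides the members, the window from 25 genes before the first to 25 after the last holds 60 RefSeq genes, 32 of them olfactory receptor genes, which are silent in most tissues outside the nose. Of the 33 measured 11 were bright enough to be tested, 7 of these olfactory receptor genes. The group means of these 11 lay between 3.55 and 4.66, above a limit of 3.48, which leaves little room for a lower value. Differences of the 11 ran from -0.16 to 0.17, with a median of 0.03 and 8 higher and 3 lower means. No pair of groups was without overlap, and there were 0 calls by limma and 0 at an unadjusted p under 0.05. The other 4 were the ubiquitin-specific protease genes Usp17la (0.14 ± 0.25) and Usp17le (0.15 ± 0.28), Ubqln5 (-0.06 ± 0.17) and Olfm5 (0.02 ± 0.13). The predicted gene Gm15133, next to Trim12a on the side of Trim12c, was too dim to be tested and is named after its values were seen. It read 2.48, 2.83 and 2.84 in RRas2-deficient replicates 1 to 3 and 3.45, 3.34, 3.44 and 3.47 in WT replicates 1 to 4, without overlap.

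**Figure D4:**
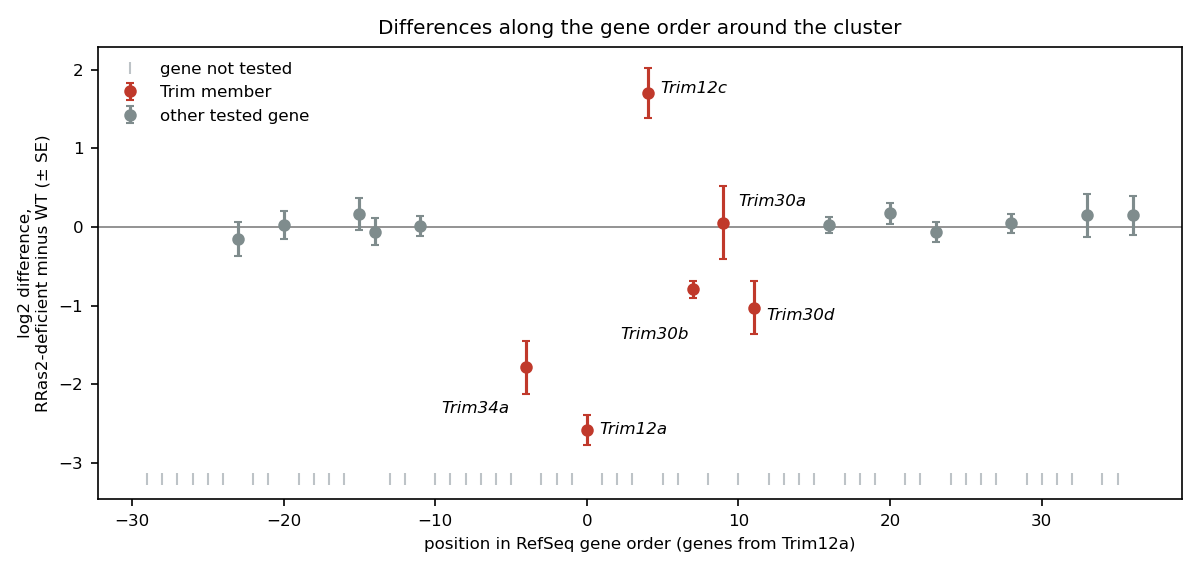
Log2 difference, RRas2-deficient minus WT (± SE), of the tested genes by their position in RefSeq gene order from Trim12a, with members in red, other genes in grey and ticks for genes not tested. Members, which were chosen by these differences, reach from -2.59 to 1.71. The 11 other tested genes, with group means of only 3.55 to 4.66, lie between -0.16 and 0.17.

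The Trim genes that are no members of the cluster gave no call. Of the other Trim genes of chromosome 7, 6 were tested, with 3 higher and 3 lower means, a median of 0.07, 0 calls by limma and 1 at an unadjusted p under 0.05 (all genes tested, 0.818%). With the array set as a block limma called 0 and gave such a p to 3, Trim68, Trim21 and Trim66 (all genes tested, 10.1%). The 1 without the block was Trim68, which averaged 5.45 ± 0.34 in deficient (SD, n = 3) and 4.93 ± 0.26 in WT cells (SD, n = 4), a difference of 0.52 ± 0.20 (SE, limma adjusted p = 1.00). Trim21, the cytosolic antibody receptor, read 6.91 to 6.98 on deficient arrays and 6.67 to 6.86 on WT arrays, a difference of 0.19 ± 0.08 (SE, limma adjusted p = 1.00). It was the only 1 of the 6 without overlap of the genotypes (16.7%, where all genes tested gave 1.08%). Trim66 differed by 0.18 ± 0.16, the muscle membrane repair gene Trim72 by -0.08 ± 0.10, Trim3 by -0.05 ± 0.13 and Trim28, the corepressor of KRAB zinc finger proteins, by -0.05 ± 0.24.

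On other chromosomes 40 Trim genes were tested, 25 with higher and 15 with lower means, and their differences stayed between -0.23 and 0.25 with a median of 0.02. None was without overlap, limma called 0, and 0 had an unadjusted p under 0.05. The 4 of lowest p were Trim55 (0.15 ± 0.10), Trim71 (0.21 ± 0.15), Trim80 (-0.15 ± 0.11) and Trim54 (0.13 ± 0.12). Each had a limma adjusted p of 1.00. With the array set as a block 1 of the 40, Trim71, and 1 of the 11 neighbours had an unadjusted p under 0.05, and limma called none of them.

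**Figure D5:**
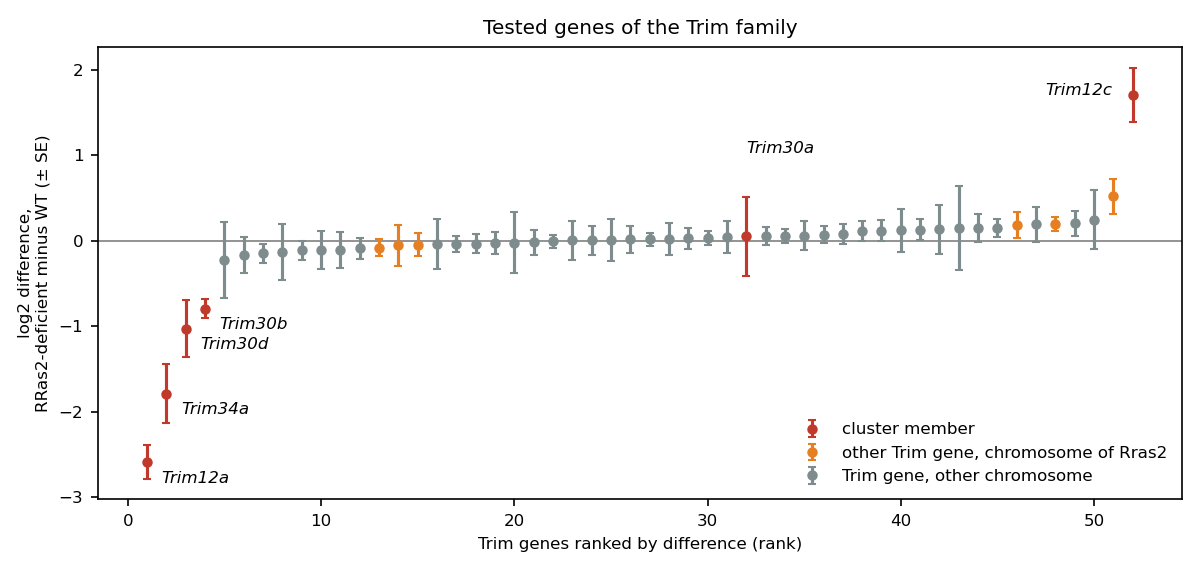
Log2 difference, RRas2-deficient minus WT (± SE), of the 52 tested Trim genes ranked by size, with cluster members in red, other Trim genes of chromosome 7 in orange and those of other chromosomes in grey. The members were chosen by these differences. Trim12a, Trim34a, Trim30d and Trim30b hold the 4 lowest ranks and Trim12c the highest, and Trim30a lies among the rest.

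The genes most like Trim12a over the 7 arrays, members apart, were taken by Pearson's r across all genes tested, as a description. They were the predicted gene Gm1966 (r = 0.98), the Fc receptor-like gene Fcrl5 (0.96), the predicted gene Gm4759 (0.95), the transporter gene Slc16a13 (0.92) and Nucb2 (0.92). Gm1966, Gm4759 and Nucb2 also lie on chromosome 7, at 207 and 211 genes from Rras2 on the side of the Trim genes and 32 genes on the other side. Fcrl5 (-0.57 ± 0.11) lies on chromosome 3 and Slc16a13 (-0.23 ± 0.08) on chromosome 11. The share of chromosome 7 among all genes tested was not counted. Gm1966 averaged 3.63 ± 0.31 in deficient (SD, n = 3) and 7.32 ± 0.25 in WT cells (SD, n = 4), and Gm4759 4.00 ± 0.17 in deficient (SD, n = 3) and 6.50 ± 0.52 in WT cells (SD, n = 4). For Trim12c they were Gimap6 (r = 0.94), the RAB GTPase-activating protein gene Tbc1d4 (0.94), the orphan receptor gene Gprc5b (0.93), Phf11 (0.92) and Ldhc (0.92). Gprc5b and Ldhc lie on chromosome 7 as well, at 69 genes from Rras2 for Gprc5b and 1561 on the other side for Ldhc. Gimap6 (0.19 ± 0.09) lies on chromosome 6, and Tbc1d4 (0.34 ± 0.13) and Phf11 (0.47 ± 0.19) on chromosome 14. Ldhc averaged 3.54 ± 0.03 in deficient (SD, n = 3) and read 3.51 on all 4 WT arrays, and Gprc5b averaged 5.96 ± 0.47 in deficient (SD, n = 3) and 4.97 ± 0.18 in WT cells (SD, n = 4). These r values share the arrays, the genotype and the array set with the members.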

How the data were processed

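Each sample had 1 whole-transcript array, and the authors deposited its transcript-level log2 intensity values, made with RMA and the package oligo per the submitters' processing notes, without versions. Scanner files were not used here, and precision is limited by there being 7 arrays. Of 25349 probes 22225 had 1 gene symbol in the platform annotation, 616 several and 2508 none, and only the first were assigned to genes. Of the others only the probe annotated with both Trim12c and Trim5 was described. The brightest probe of a gene was kept, and genes whose mean fell below 3.48, the 25th percentile of all genes, were left out. All genes were fitted together with limma 3.58.1 in R 4.3.3 (RRas2-deficient minus WT, two-sided, Benjamini-Hochberg over 16136 genes, threshold 0.05), tested on simulated data first. Standard errors (SE) of differences are limma's moderated ones, also where ± follows a difference in parentheses. The genotype came from the labels. Members, lists, the split into array sets and the rule for named genes (the members, Rras2, all other Trim genes of chromosome 7, up to 4 genes of lowest p of each list, 5 genes most like Trim12a and Trim12c) were chosen with earlier results of these data known. Predicted and olfactory receptor genes were only counted among neighbours, except Gm15133, named after its values were seen. Gene order and promoter windows come from RefSeq tables (GRCm38.p6), and pairs of windows were aligned with Biopython 1.88 without penalty for gaps at the ends, so identity is over the overlapping part. Alternatives were the mean over probes, further quantile normalization, centring, the array set or interquartile range in the model, each set alone, the replicate number as a block, array weights, other filters, a trended robust prior and leaving out each array. Deviations from the group means over the genes tested correlated at -0.59, 0.78 and 0.66 for the arrays numbered 1, 2 and 3. Numbers 2 and 3 each fall in 1 array set and number 1 in both sets. Since pair 1 did not deviate together and the labels give the numbers no meaning, they were not used as pairs.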

Additional observations from a re-analysis of the deposited data

Results flagged for a closer look

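In 31 measures (the members, Rras2, the other Trim genes of chromosome 7, and the list means) the 4 WT arrays were checked for an array far from the rest, and 3 had one. Trim6 read 3.60 in WT replicate 2 and 3.32 to 3.35 on the other WT arrays. Trim72 read 4.38 in WT replicate 1 and 4.08 on the others. Trim30c read 2.96 in WT replicate 1 and 3.27 on the others, and it was dim throughout. Chance flags about 1 in 20 such groups where values are normally distributed. The 3 flagged groups each hold exactly repeated WT values, to which that rate does not apply. None of the 6 members was flagged, and groups of 3 deficient arrays were not checked.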

How the results depend on the processing

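Trim12a, Trim34a, Trim30b and Trim30d stayed lower and Trim12c higher in deficient cells in all 16 alternatives run for each member, and Trim30a ran from -0.51 to 0.50. The log2 difference of Trim12a was -2.29 within the narrower arrays and -2.94 with array weights. That of Trim12c was 0.99 within the narrower arrays, and that of Trim30d -0.42 within the narrower and -1.53 within the wider arrays. Limma's lower calls, 2 in the fit reported, numbered 1 with the arrays centred on medians, 0 within the wider arrays, 0 with the replicate block and 4 with array weights, and 0 to 2 when 1 array was left out. They numbered 0 when the array left out was WT replicate 1 or 4 or deficient replicate 2 or 3, and 1 when it was WT replicate 2 or deficient replicate 1. Higher calls numbered 1 with array weights and 0 elsewhere. With the replicate block, which sets WT replicate 4 aside, the members differed by -2.46 (Trim12a), 1.69 (Trim12c), 0.08 (Trim30a), -0.82 (Trim30b), -1.05 (Trim30d) and -1.67 (Trim34a). The median of the other Trim genes of chromosome 7 was 0.22 within the narrower arrays and -0.046 with no filter on dim genes, which adds 3 dim genes, and that of the interferon response list was -0.020 within the narrower arrays. Rras2 stayed lower and uncalled in every alternative, from -1.50 to -0.59. The causes were not tested. The narrower set holds 1 deficient array and gave no test.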
